A study of Mus musculus with 15 samples.

Results

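The genes described here are 7 regulators that many tissues use before birth and that many tumors use again: the RNA-binding proteins LIN28A and LIN28B, the 3 insulin-like growth factor 2 mRNA-binding proteins (Igf2bp1, Igf2bp2 and Igf2bp3), and the chromatin architectural proteins HMGA1 and HMGA2. They were chosen by symbol among the 78298 genes of the count files, and each symbol matched 1 gene. Their mRNA was followed in mouse small intestinal organoids that overexpressed the transcription factor SOX9 and that, over long culture, changed from a budding to a round, spheroid form.

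LIN28A and LIN28B bind precursors of let-7, a microRNA family that rises as tissues mature, and keep the precursors from being processed. Mature let-7 in turn represses mRNAs that carry its target sites, among them those of the LIN28, IGF2BP and HMGA genes. IGF2BP proteins bind their target mRNAs, in part at N6-methyladenosine, and protect them from decay, and HMGA proteins bend AT-rich DNA and open chromatin. In the intestinal epithelium LIN28B and the IGF2BP proteins are best known from fetal growth and from colorectal tumors.

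Poly-A RNA was sequenced from 15 libraries, 3 labelled biological replicates in each of 5 conditions. All organoids came from the small intestine of mice, were transduced with lentivirus and were selected with antibiotics, and each line is a single stable line, so the spread between libraries is that within a line. The control, Halo-NLS, expressed a V5-tagged HaloTag with a nuclear localization signal from the L30 promoter with a puromycin resistance cassette. The SOX9 lines expressed SOX9 fused to HaloTag and V5 (SOX9-Halo) or to mEGFP and V5 (SOX9-mEGFP) from the same promoter and cassette, and were sampled as budding organoids and, at later passages, as spheroids. The spheroid libraries carried a second transgene, H2B-mEGFP with zeocin resistance in SOX9-Halo_spheroid and H2B-mScarletI with neomycin resistance in SOX9-mEGFP_spheroid, so morphology, passage and this transgene cannot be told apart. In these bulk samples, fewer cells that express a gene and less of its RNA per cell cannot be told apart either.

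Between 28062722 and 40559766 reads per library lay on genes. Sox9, which in Halo-NLS is the endogenous gene alone and in the SOX9 lines the transgene and the endogenous gene counted together, had 9.10 to 22.9 counts per 1000000 reads on genes (CPM, here scaled by the TMM method) in Halo-NLS and 39.8 to 705 CPM in the 12 SOX9 libraries, with the lowest of these in SOX9-Halo_budding replicate 1. Halo-NLS replicate 3 stood apart, with a count on 40375 genes against 24214 and 29003 in the other Halo-NLS libraries. Low counts of markers of several cell types were higher in it. The leukocyte gene Ptprc had 17 counts and the T cell gene Cd3e 34, against 0 or 1 in the other Halo-NLS libraries. The endothelial marker Cdh5 had 10 (against 0 and 0) and the germ cell marker Sall4 21 (against 6 and 1). The immune markers Itgam (22 against 38 and 39) and Cd68 (22 against 26 and 18) were not higher. The 8 intestinal epithelial marker genes summed to 7232 to 11890 CPM in 4 conditions and to 3392 to 3577 CPM in SOX9-Halo_spheroid. There the transcription factor Cdx2 had 82 to 105 counts and the cadherin Cdh17 had 16 to 63, and Vil1, Krt20, Lgals4 and Epcam were also below Halo-NLS. The remaining genes of the 8, Cdh1 and Krt8, were not low. Cdh1 had 23735 to 33696 counts there against 13089 to 23960 in Halo-NLS, and Krt8 54590 to 75245 against 49025 to 99119. Cdx2 was lower in SOX9-mEGFP_spheroid as well, at 2169 to 3909 counts against 8786 to 14290 in Halo-NLS. The label of intestinal epithelium was therefore only partly met in SOX9-Halo_spheroid.

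The 7 genes share a sequence match to let-7. The LIN28, IGF2BP and HMGA mRNAs are known let-7 targets, as given above. Matches in them were therefore to be found, and they are given as a description. The seed of a microRNA, bases 2 to 8 from its 5′ end, pairs with its target, and 11 mature mouse microRNAs in RefSeq (GRCm38.p6) have the let-7 seed, shown in capitals for 4 that differ elsewhere.

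let-7a: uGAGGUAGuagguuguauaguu
let-7b: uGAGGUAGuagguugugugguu
let-7g: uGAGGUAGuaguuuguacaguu
miR-98: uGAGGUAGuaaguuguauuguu

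The reverse complement of this seed, CTACCTC, was searched on the transcript strand of 1 annotated 3′ untranslated region (UTR) per gene (GENCODE M39, GRCm39). It occurred at least once in all 7 genes, 17 times in all, while 11.8% of the 13150 tested genes with an annotated 3′ UTR held it. That share is not matched for length. The median UTR of those tested genes had 1386 bases, and the UTRs of the 7 genes had 1174 to 6337. Lin28b, Igf2bp1 and Hmga2 held it 4 times each, which 12 of 20937 coding genes did or exceeded. Lin28a held it 2 times and Igf2bp2, Igf2bp3 and Hmga1 once each. Among tested genes with a 3′ UTR of 0.8 to 1.25 times the length of Igf2bp3's, 13.8% held it at least once, so a single match was not rare in UTRs of this length. Among the 2142 genes with a UTR of Hmga2's length, 0.0467% held 4 or more. The 4 matches of Igf2bp1 and the first match of each other gene are printed 5′ to 3′ with the 7 matching bases in capitals, all in 3′ UTR exons. They show the same 7 bases in all 7 genes, which differ in the number of matches. Whether the matches bear on the mRNA levels was not tested.

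Igf2bp1, chr11:95852604-95852626, minus strand: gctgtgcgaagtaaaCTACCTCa
Igf2bp1, chr11:95850183-95850205, minus strand: cagcagtgctattaaCTACCTCa
Igf2bp1, chr11:95849589-95849611, minus strand: gtataaatggatgaaCTACCTCa
Igf2bp1, chr11:95848966-95848988, minus strand: acttttggttttaatCTACCTCt
Igf2bp3, chr6:49063721-49063743, minus strand: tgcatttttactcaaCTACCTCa
Igf2bp2, chr16:21878223-21878245, minus strand: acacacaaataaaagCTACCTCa
Hmga1, chr17:27782251-27782273, plus strand: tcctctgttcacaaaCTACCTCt
Hmga2, chr10:120200129-120200151, minus strand: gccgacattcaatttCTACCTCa
Lin28a, chr4:133732500-133732522, minus strand: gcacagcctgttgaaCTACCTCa
Lin28b, chr10:45257118-45257140, minus strand: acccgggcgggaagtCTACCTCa

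**Figure D1:**
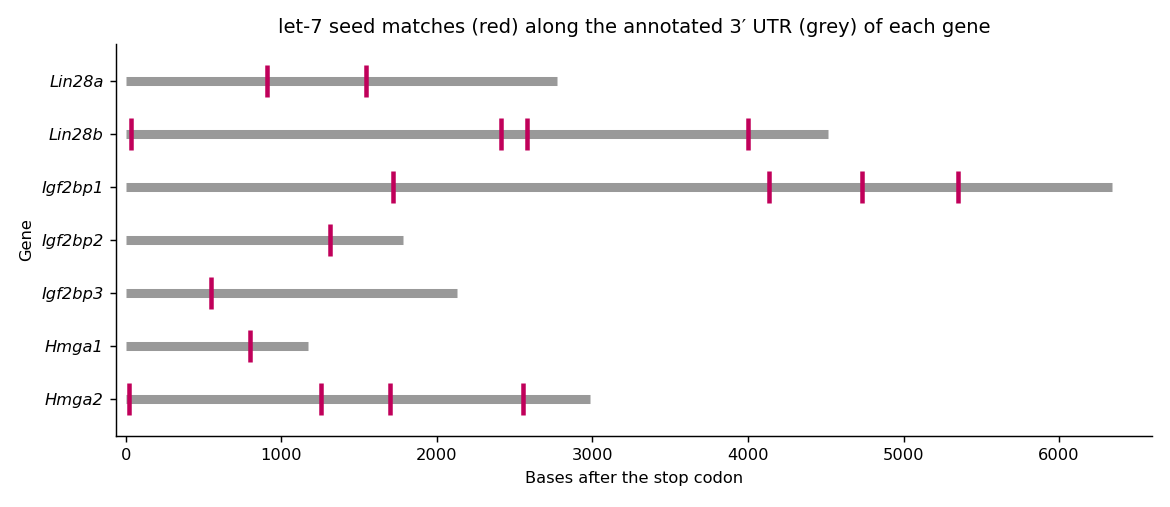
Matches to the let-7 seed (red ticks) along the annotated 3′ UTR (grey bar) of each gene, with the distance from the stop codon in bases on the horizontal axis. Lin28b, Igf2bp1 and Hmga2 have 4 ticks each, Lin28a has 2, and Igf2bp2, Igf2bp3 and Hmga1 have 1 each.

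A match is a description of the sequence and not a measured site, and the poly-A libraries did not measure mature let-7.

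Of the 7 genes, 5 had enough counts to be tested, and Lin28a and Lin28b did not. A gene was called when edgeR's quasi-likelihood test, adjusted after Benjamini-Hochberg over the 17560 genes tested, gave an adjusted p of at most 0.01, the log2 fold change was at least 1 in size and the mean normalized count was at least 10. Of the 5 tested genes, 3 were called between SOX9-Halo_spheroid and Halo-NLS (Igf2bp1 up, Igf2bp3 and Hmga1 down), where 28.9% of all tested genes were called. Between SOX9-mEGFP_spheroid and Halo-NLS 2 were called, Igf2bp3 and Hmga1, both down, beside 27.5% of all genes. No gene of the 7 was called in SOX9-Halo_budding (3.75% of all genes called) or in SOX9-mEGFP_budding (2.76%) against Halo-NLS. These 4 comparisons share the Halo-NLS libraries.

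Between the spheroids and the budding organoids of the same line, Igf2bp1 and Igf2bp3 were called in SOX9-Halo (2 genes, beside 25.3% of all genes) and Igf2bp3 in SOX9-mEGFP (1 gene, beside 16.4%). Between the spheroids of both lines Igf2bp1 was called (1 gene, beside 13.2%), and between the budding organoids of both lines none was (beside 0.456%). With 5 tested genes, these counts are not read as a property of the set.

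**Figure D2:**
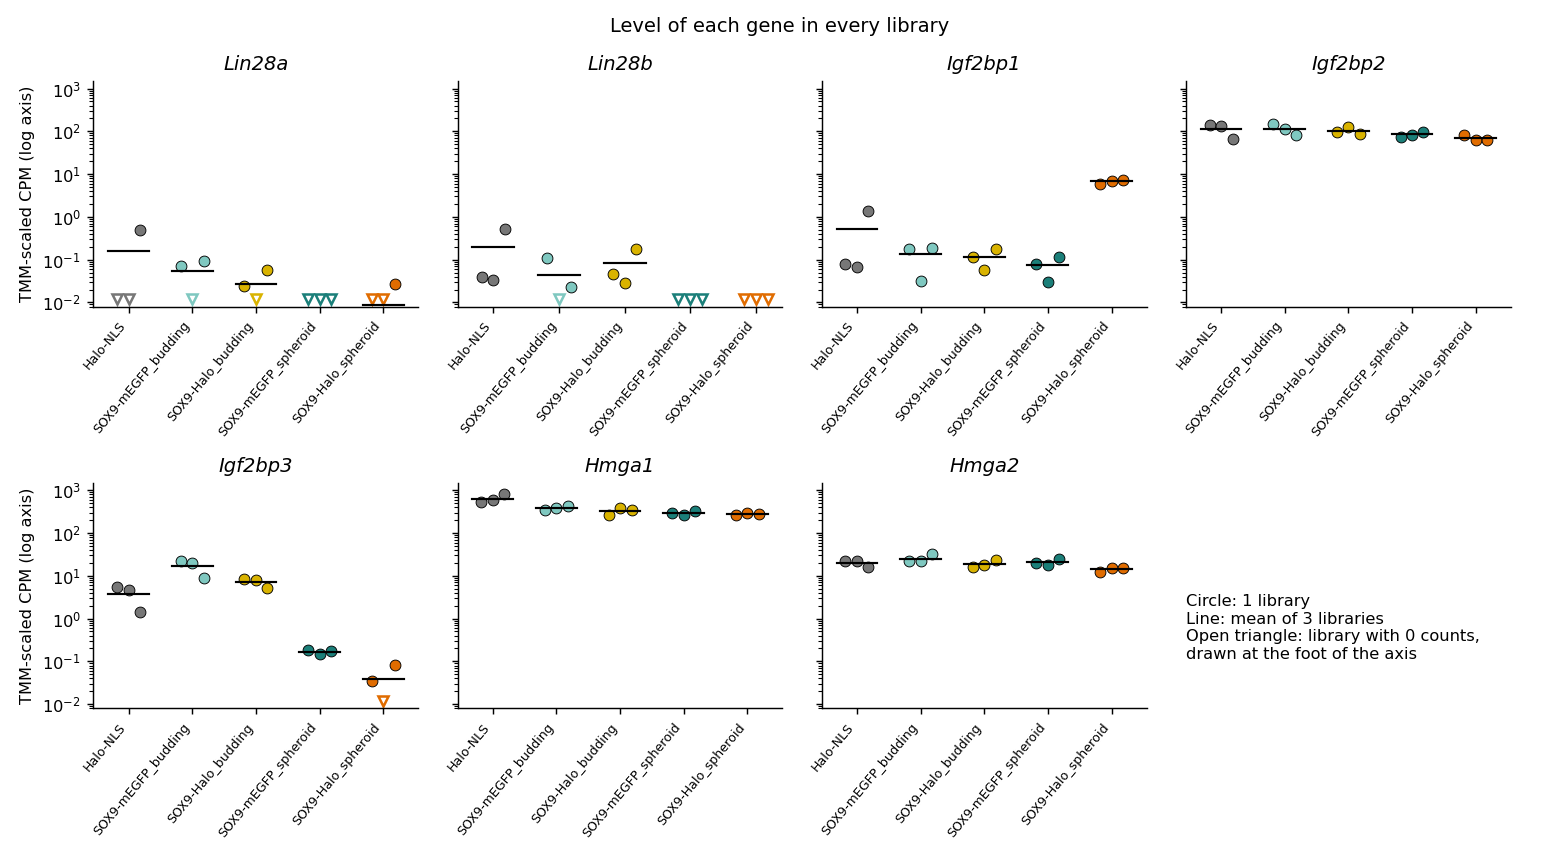
TMM-scaled CPM (log axis) of the 7 genes in each of the 15 libraries, with 1 circle per library, open triangles for libraries with 0 counts and a line at the mean of 3 libraries. Igf2bp1 is high in the 3 SOX9-Halo_spheroid libraries (5.93 to 7.24 CPM), and Igf2bp3 is low in all 6 spheroid libraries (0 to 0.185 CPM).

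Igf2bp1 (ENSMUSG00000013415, chr11:95847989-95896911, minus strand), the family member with the most restricted use after birth, was nearly silent in every condition but SOX9-Halo_spheroid. There the 3 libraries had 168, 248 and 270 counts, or 5.93, 6.99 and 7.24 CPM. The SOX9-mEGFP_spheroid libraries had 3, 1 and 4 counts, the SOX9-Halo_budding libraries 5, 2 and 6, and the SOX9-mEGFP_budding libraries 5, 1 and 8. The 3 libraries of SOX9-Halo_spheroid were thus above all 12 others, and the other SOX9 conditions overlapped each other. Halo-NLS had 2, 2 and 37 counts, so that nearly all of its Igf2bp1 reads came from replicate 3, the library that stood apart.

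Igf2bp1 passed the low-count filter through the SOX9-Halo_spheroid libraries, so that a difference of these libraries was to be found once it was tested. Against SOX9-Halo_budding it rose by a log2 fold change of 5.80 ± 0.86 (SE; edgeR's quasi-likelihood test, adjusted p = 5.78e-05), and summed over libraries the level was 58.0 times as high (686 against 13 counts, 95% exact counting interval 33.7 to 109). Against SOX9-mEGFP_spheroid, the other spheroid line, the log2 fold change was 6.42 ± 0.91 (edgeR, adjusted p = 8.84e-05), or 90.4 times by summed counts (686 against 8, interval 45.6 to 210.2). Against Halo-NLS the log2 fold change was 3.72 ± 0.74 (edgeR, adjusted p = 7.66e-04). Without Halo-NLS replicate 3 it was 6.46 (edgeR, adjusted p = 1.64e-06), so that its size depended strongly on that library.

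Igf2bp1 was high in the spheroids of only 1 of the 2 SOX9 lines. In SOX9-mEGFP the change from budding to spheroid was -0.81 ± 1.11 on the log2 scale (edgeR, adjusted p = 0.667), on 8 spheroid and 14 budding counts. The difference of the changes, tested as an interaction, was 6.61 ± 1.42 (edgeR, adjusted p = 0.00532), and Igf2bp1 was the only 1 of the 5 tested genes called in it, where 7.39% of all genes were called. This p is subject to the same limit, that Igf2bp1 was tested because SOX9-Halo_spheroid was high, and it is given as a description. With 9 of the 15 libraries left out in turn, among them each SOX9-mEGFP_spheroid library, the size stayed between 6.24 and 6.98 but the adjusted p rose to between 0.01 and 0.0396, past the limit. In SOX9-mEGFP_spheroid against Halo-NLS the fitted Igf2bp1 change of -2.70 ± 0.97 (edgeR, adjusted p = 0.0312, not called) became 0.03 without Halo-NLS replicate 3. It was called lower without the low-count filter (-2.58, edgeR, adjusted p = 1.67e-04) and without Halo-NLS replicate 1 or 2, fits that all keep replicate 3.

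Beside the rise of Igf2bp1, SOX9-Halo_spheroid had the low intestinal marker sum given above. The 7 pluripotent and germ cell markers summed to 0.0564 to 0.353 CPM there, with Pou5f1, Nanog, Dazl and Zfp42 at 0 counts in all 3 libraries. The 8 mesenchymal markers, of which Col3a1 and Dcn were at 0, summed to 1.18 to 2.08 CPM there, below the 7.98 to 9.40 CPM in Halo-NLS. Vim made up most of the Halo-NLS sum (127 to 221 counts, against 16 to 24), while Col1a1 was higher in SOX9-Halo_spheroid (32, 12 and 16 counts, against 1, 3 and 8). The 6 immune markers summed to 3.35 to 8.15 CPM there and to 2.33 to 4.61 CPM in Halo-NLS, with Cd68 higher (228, 135 and 111 counts, against 26, 18 and 22) and Ptprc at 0. The 4 endothelial markers, with Kdr and Tek at 0, summed to 0.0353 to 0.107 CPM, against 0.821 to 1.35 CPM in Halo-NLS, and the 9 proliferation genes to 716 to 1301 CPM, the last within the 605 to 1435 CPM of the other conditions. The part of these marker differences in the Igf2bp1 result was not tested. Among the genes whose log2 CPM over the 15 libraries was most like that of Igf2bp1, of 15071 compared, were the transcription factor genes Tbx20 (Pearson r = 0.984) and Tfap2c (0.973). Their mean levels in SOX9-Halo_spheroid were 2.12 and 6.42 CPM, against 0.338 and 0.149 CPM in Halo-NLS and at most 0.0473 and 0.0878 CPM in the other SOX9 conditions. These correlations describe 5 conditions with 3 libraries each and rest on a single condition that is high.

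Igf2bp3 (ENSMUSG00000029814, chr6:49062144-49192447, minus strand), the paralog most often found in fetal and cancer tissue, went the other way in both lines. The 3 Halo-NLS libraries had 137, 135 and 39 counts, or 5.34, 4.62 and 1.46 CPM. The SOX9-Halo_budding libraries had 8.42, 8.18 and 5.32 CPM and the SOX9-mEGFP_budding libraries 22.6, 19.6 and 8.91 CPM. All budding and control libraries thus held clear Igf2bp3 signal, lowest in Halo-NLS replicate 3. The SOX9-mEGFP_spheroid libraries had only 7, 5 and 6 counts and the SOX9-Halo_spheroid libraries 1, 0 and 3, so that no spheroid library overlapped any budding or control library.

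From budding to spheroid, Igf2bp3 fell in SOX9-mEGFP by a log2 fold change of -6.62 ± 0.61 (SE; edgeR's quasi-likelihood test, adjusted p = 1.54e-06), and summed counts were 94.2 times lower (18 against 1640 counts, 95% exact counting interval 59.4 to 159). In SOX9-Halo it fell by a log2 fold change of -7.40 ± 0.71 (edgeR, adjusted p = 7.90e-07), or 187 times by summed counts (4 against 820, interval 72.6 to 686). The fall did not differ between the lines beyond its error, with an interaction of -0.78 ± 0.95 (edgeR, adjusted p = 0.696). Against Halo-NLS the fitted changes were -4.47 ± 0.58 in SOX9-mEGFP_spheroid (edgeR, adjusted p = 2.48e-05) and -6.46 ± 0.71 in SOX9-Halo_spheroid (edgeR, adjusted p = 2.86e-06), and these 4 calls held under every alternative run.

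In the budding organoids Igf2bp3 was higher than in the control, without passing the test. The 3 SOX9-mEGFP_budding libraries were all above the 3 Halo-NLS libraries, with a log2 fold change of 2.16 ± 0.47 (edgeR, adjusted p = 0.0111), just past the limit of 0.01. It was called by DESeq2 (adjusted p = 2.78e-04), with library sizes alone, without the low-count filter, with the replicate number as a block, and without Halo-NLS replicate 1 or SOX9-mEGFP_budding replicate 3. Without Halo-NLS replicate 3 the log2 fold change was 1.77 (edgeR, adjusted p = 0.0336). In SOX9-Halo_budding, where 1 library (5.32 CPM) lay just below the highest of Halo-NLS (5.34 CPM), the log2 fold change was 0.94 ± 0.46 (edgeR, adjusted p = 0.146).

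The ordering of Igf2bp3 by mean CPM ran from SOX9-mEGFP_budding (17.0 ± 7.18, SD, n = 3) over SOX9-Halo_budding (7.30 ± 1.72) and Halo-NLS (3.80 ± 2.06) to SOX9-mEGFP_spheroid (0.168 ± 0.0181) and SOX9-Halo_spheroid (0.0386 ± 0.0403). Only the middle pair, SOX9-Halo_budding and Halo-NLS, overlapped in single libraries. The 3 genes with the pattern most like it were Nlrp1b, an inflammasome sensor (Pearson r = 0.984 over 15 libraries), Sema6d, a semaphorin (0.982), and Gm56730 (0.981). Of the exon length of Igf2bp3, 19.3% is shared with Malsu1 on the opposite strand, and reads there were left uncounted because counting ignored strand and dropped reads on several genes.

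Igf2bp2 (ENSMUSG00000033581, chr16:21877759-21982499, minus strand), the paralog that adult tissues use most widely, was expressed throughout and was not called in any comparison. Its levels were 142, 132 and 65.0 CPM in Halo-NLS, 148, 111 and 82.3 CPM in SOX9-mEGFP_budding and 97.0, 124 and 88.8 CPM in SOX9-Halo_budding. They were 75.2, 84.1 and 95.0 CPM in SOX9-mEGFP_spheroid and 84.3, 64.0 and 64.3 CPM in SOX9-Halo_spheroid. The conditions lay in a narrow band in which each neighbour in order of mean overlapped the next, and only SOX9-Halo_spheroid was wholly below its own budding line.

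For Igf2bp2 the log2 fold change between SOX9-Halo_spheroid and Halo-NLS was -0.67 ± 0.28 (edgeR, adjusted p = 0.0615), and -0.95 without Halo-NLS replicate 3 (adjusted p = 0.00574), still under the fold limit. Between SOX9-Halo_spheroid and SOX9-Halo_budding it was -0.54 ± 0.28 (edgeR, adjusted p = 0.142). The genes most like Igf2bp2 were Zfr2 (Pearson r = 0.922), Ppp2r5c (0.918), a regulatory subunit of protein phosphatase 2A, and Tfg (0.912), a protein of the early secretory pathway.

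Per kilobase of exon, Igf2bp2 made up most of the summed level of the 3 Igf2bp genes in every library. Its share was 96.6% ± 0.22 (SD, n = 3) in Halo-NLS, 88.2% ± 2.40 in SOX9-mEGFP_budding and 93.8% ± 1.13 in SOX9-Halo_budding. In the budding organoids the remainder was nearly all Igf2bp3, at 11.7% ± 2.47 and 6.11% ± 1.14. In SOX9-mEGFP_spheroid Igf2bp2 took 99.7% ± 0.0588, and in SOX9-Halo_spheroid it took 92.9% ± 1.61 with Igf2bp1 at 7.05% ± 1.60 and Igf2bp3 at 0.0474% ± 0.0537. The second paralog was thus Igf2bp3 in both budding conditions and Igf2bp1 in SOX9-Halo_spheroid.

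**Figure D3:**
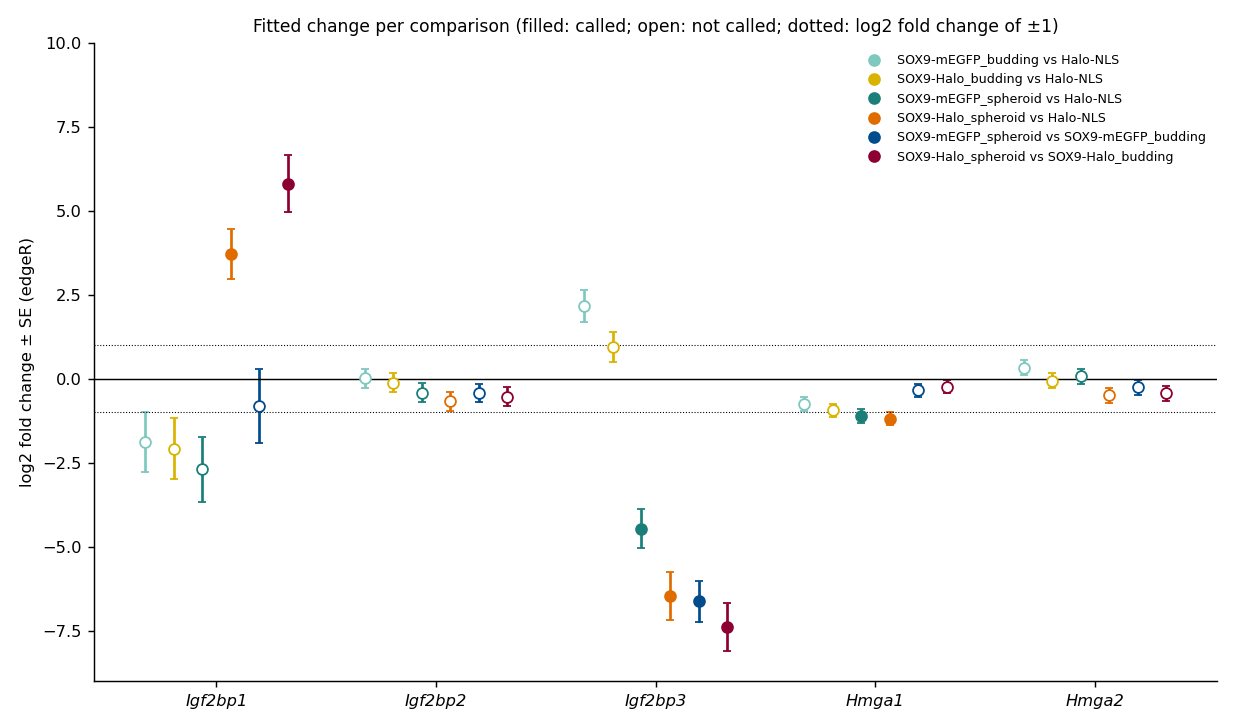
Fitted log2 fold change (edgeR) with its standard error for the 5 tested genes in 6 comparisons, with filled circles where a gene was called and dotted lines at a log2 fold change of 1 up or down. Igf2bp3 lies between -4.47 and -7.40 in all 4 spheroid comparisons, and Igf2bp1 is filled at 3.72 and 5.80 in the SOX9-Halo_spheroid comparisons.

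Hmga1 (ENSMUSG00000046711, chr17:27775449-27782648, plus strand), a chromatin protein abundant in proliferating epithelium, was the most abundant of the 7 genes. Per kilobase of exon its mean level in Halo-NLS was 139 ± 30.0 CPM (SD, n = 3), above that of 98.1% of the tested genes. Halo-NLS had 531, 597 and 797 CPM, with the highest in replicate 3. SOX9-mEGFP_budding had 341, 376 and 421 CPM, SOX9-Halo_budding 258, 385 and 355, SOX9-mEGFP_spheroid 297, 266 and 332, and SOX9-Halo_spheroid 258, 301 and 285. All 12 SOX9 libraries were below all 3 control libraries, while each SOX9 condition overlapped the next in order of mean.

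Against Halo-NLS, Hmga1 fell by a log2 fold change of -1.19 ± 0.20 in SOX9-Halo_spheroid (edgeR, adjusted p = 1.92e-04) and of -1.11 ± 0.20 in SOX9-mEGFP_spheroid (edgeR, adjusted p = 4.51e-04). The values in SOX9-Halo_budding (-0.95 ± 0.20, adjusted p = 0.00857) and SOX9-mEGFP_budding (-0.76 ± 0.20, adjusted p = 0.0259) were under the fold limit. Because the spheroid values lie close to that limit, both calls were lost when only library sizes were used for scaling (-0.90 and -0.84), and without Halo-NLS replicate 3 the call in SOX9-mEGFP_spheroid was lost (-0.92). From budding to spheroid the log2 fold change was -0.24 ± 0.20 in SOX9-Halo and -0.35 ± 0.20 in SOX9-mEGFP (edgeR, adjusted p = 0.366 and 0.231).

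Hmga1 has a near-identical copy, Hmga1b, which held 96 to 270 counts per library against 7308 to 21274 for Hmga1. Reads that match both equally were dropped because only unique alignments were kept. Of its exon length, 14.5% is shared with Smim29 on the opposite strand. The genes most like Hmga1 were Gpn2 (Pearson r = 0.963), Mocs3 (0.956) and Taf10 (0.948), a subunit of the general transcription factor TFIID.

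Hmga2 (ENSMUSG00000056758, chr10:120197173-120313095, minus strand), the HMGA gene that is more strictly fetal, was expressed in every library and was not called in any comparison. Its levels were 22.5, 22.2 and 15.7 CPM in Halo-NLS, 21.6, 22.3 and 31.7 CPM in SOX9-mEGFP_budding and 16.0, 18.3 and 23.7 CPM in SOX9-Halo_budding. They were 20.3, 18.2 and 24.6 CPM in SOX9-mEGFP_spheroid and 12.6, 15.0 and 15.2 CPM in SOX9-Halo_spheroid, the lowest condition and the only 1 with no library in the range of its neighbour. Per kilobase of exon, Hmga2 in Halo-NLS was at 2.33 ± 0.442 CPM against 139 CPM for Hmga1.

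For Hmga2 the log2 fold changes of SOX9-Halo_spheroid were -0.50 ± 0.23 against Halo-NLS, -0.44 ± 0.23 against SOX9-Halo_budding and -0.56 ± 0.23 against SOX9-mEGFP_spheroid (edgeR, adjusted p = 0.0896, 0.151 and 0.0967). In SOX9-mEGFP_spheroid against Halo-NLS it was 0.06 ± 0.23 (edgeR, adjusted p = 0.832). The genes most like Hmga2 were Poc1b (Pearson r = 0.894), a centriole protein gene, Gm20324 (0.864) and Gm48127 (0.842).

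Lin28a (ENSMUSG00000050966, chr4:133730641-133746173, minus strand) and Lin28b (ENSMUSG00000063804, chr10:45252646-45362557, minus strand) were at or near 0 in the SOX9 lines. Lin28a had 0, 0 and 13 counts in Halo-NLS, at most 4 in any budding library, 0, 0 and 1 in SOX9-Halo_spheroid and 0 in each SOX9-mEGFP_spheroid library. Lin28b had 1, 1 and 14 counts in Halo-NLS, 2, 1 and 6 in SOX9-Halo_budding, 3, 0 and 1 in SOX9-mEGFP_budding and 0 in all 6 spheroid libraries. Most of the control counts of either gene came from Halo-NLS replicate 3. That library also had a count on more genes and the low counts of several cell type markers given above. Whether these have a common source was not tested. A count of 0 allows up to 3 counts, which is 0.0740 to 0.107 CPM per library at this depth, so that no fold change is given, and neither gene had a level above this limit in any spheroid library.

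The lists of genes around these regulators give the mRNA levels of genes tied to let-7 and the IGF2BP proteins in the same libraries. The lists do not measure pathway activity, as neither mature let-7 nor IGF2BP binding was measured. They are described by counts of called genes and by the median log2 fold change (edgeR), beside the median of all tested genes, which was -0.01 between SOX9-Halo_spheroid and Halo-NLS and 0.03 between SOX9-mEGFP_spheroid and Halo-NLS. The counts are to be read against the 28.9% and 27.5% of all tested genes called in these comparisons, and the medians share the Halo-NLS libraries.

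The list of let-7 biogenesis and decay had 17 tested genes, with the broader Argonaute (Ago) and Musashi (Msi) genes among them. Of these, 2 rose and 1 fell in SOX9-Halo_spheroid against Halo-NLS (median 0.68), and 3 rose and 1 fell in SOX9-mEGFP_spheroid (median 0.79). Tut4, the terminal uridylyltransferase that tags let-7 precursors bound by LIN28A, rose in both, from 0.547 to 1.01 CPM in Halo-NLS to 16.7 to 23.9 CPM in SOX9-Halo_spheroid and 16.9 to 29.7 CPM in SOX9-mEGFP_spheroid. The log2 fold changes of Tut4 were 4.75 ± 0.48 and 5.05 ± 0.48 (edgeR, adjusted p = 1.13e-06 and 1.24e-06). Tut4 was called in both budding conditions as well, at 3.54 to 8.23 CPM in SOX9-Halo_budding and 4.24 to 9.77 CPM in SOX9-mEGFP_budding. Drosha, the nuclease that cuts microRNA primary transcripts, rose in SOX9-Halo_spheroid (1.76 ± 0.28, edgeR, adjusted p = 1.21e-04). Msi1, an RNA-binding protein of intestinal stem cells, fell there by -5.95 ± 0.88 (edgeR, adjusted p = 5.27e-05), from 2.69 to 7.15 CPM in Halo-NLS to 0 to 0.141 CPM. The medians of this list were as high in the budding organoids against Halo-NLS, 0.76 in SOX9-Halo_budding and 0.80 in SOX9-mEGFP_budding, where Tut4 alone was called, and from budding to spheroid they were -0.27 in SOX9-Halo and -0.12 in SOX9-mEGFP. The most abundant gene of the list, Hnrnpa1, had a log2 fold change of 0.91 ± 0.27 (edgeR, adjusted p = 0.011), which did not pass.

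Of 20 tested mRNAs known as let-7 targets, the 7 genes left out, 6 rose and 4 fell in SOX9-Halo_spheroid against Halo-NLS (median 0.77), and 7 rose and 3 fell in SOX9-mEGFP_spheroid (median 0.99). In SOX9-Halo_spheroid the D-type cyclins Ccnd2 (2.78 ± 0.20, edgeR, adjusted p = 3.93e-08) and Ccnd1 (3.03 ± 0.36, adjusted p = 5.83e-06) rose. The transcription factor gene Plagl2 fell by -1.65 ± 0.44 (edgeR, adjusted p = 0.00629). The targets thus moved in both directions. The median against Halo-NLS was 0.80 in SOX9-Halo_budding (2 rose, none fell) and 0.74 in SOX9-mEGFP_budding (1 rose, none fell), and from budding to spheroid it was -0.36 in SOX9-Halo and -0.08 in SOX9-mEGFP. Of the 21 list genes with an annotated 3′ UTR, 14 held the seed match, and Ccnd1 and Ccnd2 did not.

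Of 10 tested mRNAs reported to bind IGF2BP proteins, 3 rose and 2 fell in each spheroid condition against Halo-NLS (medians 0.72 in SOX9-Halo_spheroid and 0.55 in SOX9-mEGFP_spheroid). Cd44, a cell surface glycoprotein, had 5.47 to 6.74 CPM in Halo-NLS. It rose to 102 to 139 CPM in SOX9-Halo_spheroid (log2 fold change 4.37 ± 0.52, edgeR, adjusted p = 5.99e-06) and to 286 to 457 CPM in SOX9-mEGFP_spheroid. Cd44 was called up against Halo-NLS in SOX9-Halo_budding (2.59 ± 0.48, edgeR, adjusted p = 0.00421) and SOX9-mEGFP_budding (2.64 ± 0.48, adjusted p = 0.00391) as well. Ptgs2, the inducible prostaglandin synthase, rose to 7.50 to 13.0 CPM in SOX9-Halo_spheroid from 0 to 0.225 CPM (7.07 ± 0.93, edgeR, adjusted p = 1.80e-05). Ptgs2 had 6 to 23 counts in Halo-NLS and the budding conditions, 295 in SOX9-mEGFP_spheroid and 1037 in SOX9-Halo_spheroid. It thus passed the low-count filter through the spheroids, as Igf2bp1 did through SOX9-Halo_spheroid, and its p is a description. Pabpc1, the poly-A binding protein and most abundant of the list, rose there (1.37 ± 0.32, edgeR, adjusted p = 0.00276). The imprinted RNA H19 fell by -7.04 ± 1.29 (edgeR, adjusted p = 3.90e-04), from 0.862 to 22.5 CPM in Halo-NLS to 0 to 0.176 CPM. Most of the H19 counts lay in Halo-NLS, so a fall was to be found once H19 was tested, and this p is a description. H19 was already low in the budding organoids, at 0.0291 to 1.16 CPM in SOX9-Halo_budding (not called) and 0.0619 to 0.507 CPM in SOX9-mEGFP_budding (called, -5.47 ± 1.14, edgeR, adjusted p = 0.00913). From budding to spheroid H19 was not called in SOX9-Halo or SOX9-mEGFP (edgeR, adjusted p = 0.157 and 0.531). Igf2, which gave the family its name, had a mean of at most 0.0677 CPM in any condition and was not tested. The medians against Halo-NLS were -0.04 in SOX9-Halo_budding and 0.32 in SOX9-mEGFP_budding.

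Of 19 tested IGF2BP partners and genes of the m6A machinery, 2 rose and none fell in SOX9-Halo_spheroid against Halo-NLS (median 0.58), namely Pabpc1 and Virma, a subunit of the m6A writer complex (1.67 ± 0.34, edgeR, adjusted p = 9.12e-04). In SOX9-mEGFP_spheroid only Virma of the 19 rose (1.59 ± 0.34, edgeR, adjusted p = 0.00153), with a median of 0.38. In the budding organoids the medians were 0.70 in SOX9-Halo_budding and 0.83 in SOX9-mEGFP_budding, with no gene called. Of 11 tested other high mobility group and linker histone genes, 1 fell in SOX9-Halo_spheroid (median -0.30), Hmgn3, which had 37 counts in Halo-NLS and 0 in SOX9-Halo_spheroid. The most abundant of them, H1f0, a linker histone, had a log2 fold change of -0.90 ± 0.20 there (edgeR, adjusted p = 0.00156), under the fold limit. In SOX9-mEGFP_spheroid 1 of the 11 rose (median -0.38).

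Of 11 other oncofetal genes only 4 had enough counts to be tested, and in SOX9-Halo_spheroid 3 of these fell and none rose against Halo-NLS. They were H19, Afp, the fetal serum protein alpha-fetoprotein (-4.63 ± 0.98, edgeR, adjusted p = 0.00116), and Tpbg, the trophoblast glycoprotein (-4.14 ± 0.86, edgeR, adjusted p = 0.00108). The median was -4.92, or -4.39 with Peg3, which had 0 counts in SOX9-Halo_spheroid, set at its bound of 3 counts over the condition. In SOX9-mEGFP_spheroid H19 and Afp fell and none rose (median -2.06). The medians against Halo-NLS were -0.48 in SOX9-Halo_budding, with no gene called, and -1.31 in SOX9-mEGFP_budding, where H19 alone was called. H19 had 1034 counts in Halo-NLS and at most 57 in any other condition. A fall of such a gene was to be found once it was tested. The shared direction and the medians of these 4 genes are therefore given as a description.

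**Figure D4:**
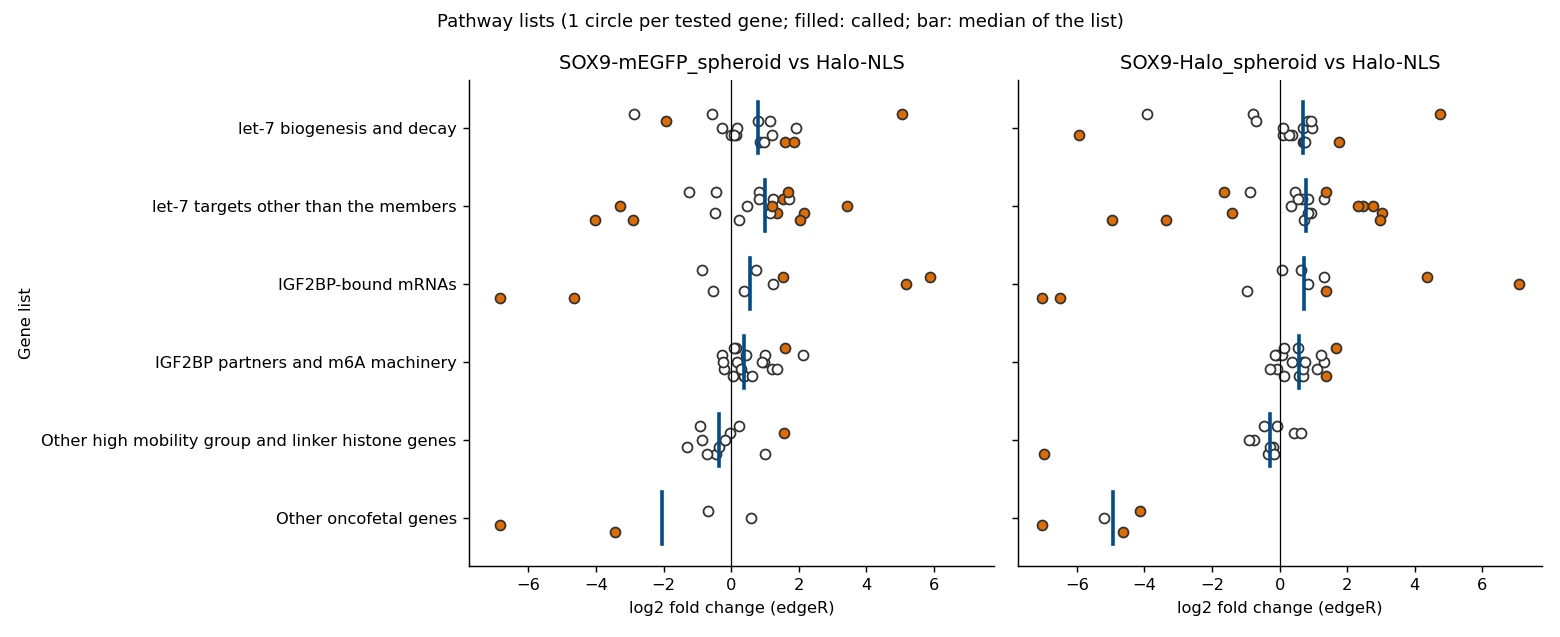
Log2 fold change (edgeR) of each tested gene of 6 lists in SOX9-mEGFP_spheroid (left) and SOX9-Halo_spheroid (right) against Halo-NLS, with 1 circle per gene, filled where called, and a bar at the median of the list. Both let-7 lists and the IGF2BP-bound mRNAs have filled circles on either side of 0. The other oncofetal genes, of which only 4 were tested, have filled circles on the left only.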

How the data were processed

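RNA from 15 organoid libraries was sequenced after poly-A selection with a kit that does not keep strand. The authors trimmed reads with cutadapt 4.5, aligned them to GRCm39 with STAR and counted unique alignments per gene with HTSeq 2.0.2 (union mode, without strand), and the deposited values used here are these raw read counts. Reads on no gene (1.83% to 6.09%) or on several genes (9.65% to 13.6%) stayed out of library sizes and tests. The deposited tables of the authors' own comparisons (means, fold changes, errors, test statistics, p-values and normalized counts) were not used.

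Counts were filtered with filterByExpr, scaled by TMM and fitted over all 15 libraries with edgeR 4.0.16 (glmQLFit and glmQLFTest, R 4.3.3), with Benjamini-Hochberg adjustment over 17560 genes. Each standard error is the absolute log2 fold change over the root of its F statistic. The same functions were run on simulated counts modelled on SOX9-Halo_spheroid and Halo-NLS alone, with less spread than in these libraries. That run did not test the fit over all conditions or for genes near 0 counts. Depth was 28062722 to 40559766 reads on genes, and 3 counts, the limit a count of 0 allows, equal 0.0740 to 0.107 CPM. Counting intervals and this limit cover counting error only. As each condition is 1 line, p-values measure only the spread between these libraries.

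The genes and lists were chosen with earlier results of these data known. All 7 genes are described. From each list are named up to 4 genes called in SOX9-Halo_spheroid against Halo-NLS with the highest mean normalized count, and the most abundant gene. For each tested gene are named the 3 genes with the highest Pearson correlation of log2 CPM (prior count 2). Some genes that these rules name are not reported here. Alternatives were DESeq2 1.42.0, RLE scaling, library sizes alone, no filter, only the libraries compared, the replicate number as a block, and each library left out. Same-numbered libraries deviated together (every correlation over 0.1) only between the SOX9-Halo budding organoids and spheroids (0.403, 0.234 and 0.344 over 11054 genes), as judged from the data alone. The blocked fit there kept the 2 calls.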

Additional observations from a re-analysis of the deposited data

Results flagged for a closer look

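The change of Igf2bp1 from budding organoid to spheroid differed between the SOX9-Halo and SOX9-mEGFP lines by 6.61 ± 1.42 on the log2 scale (interaction, edgeR's quasi-likelihood test, adjusted p = 0.00532). Igf2bp1 passed the low-count filter through SOX9-Halo_spheroid, so this p is a description, and the call was lost with any of 9 libraries left out (adjusted p up to 0.0396). Igf2bp1 had 686 counts over the 3 SOX9-Halo_spheroid libraries and 8 over the 3 SOX9-mEGFP_spheroid libraries. Each line is represented by a single stable line with its own second transgene. The paper also placed SOX9-mEGFP_spheroid before SOX9-Halo_spheroid in time in culture and in progress of the spheroid form. Line, second transgene, passage and stage therefore cannot be told apart.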

How the results depend on the processing

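Of 944 values recomputed under alternatives, 896 kept direction and side of the threshold, 12 gained and 12 lost a call, and 24 changed sign, none of them a called value. The number of genes called in SOX9-mEGFP_spheroid against Halo-NLS was 1 with library sizes alone, 3 without the filter and 1 to 3 with single libraries left out, and in the interaction it was 0 to 1. In SOX9-Halo_budding against Halo-NLS it was 1 without the filter and 0 to 1 with libraries left out, and in SOX9-mEGFP_budding it was 1 with DESeq2, with library sizes alone, without the filter and with the replicate block, and 0 to 1 with libraries left out. The replicate block changed no other call. Library sizes alone moved the median log2 fold change of all genes against Halo-NLS to between 0.27 and 0.31. The cause of these changes was not tested.

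Every sign change was of a value near 0 or of Igf2bp1 against Halo-NLS. With single libraries left out, the log2 fold change of Igf2bp1 against Halo-NLS ran from -3.22 to 0.035 in SOX9-mEGFP_spheroid, from -2.60 to 0.65 in SOX9-Halo_budding and from -2.41 to 0.85 in SOX9-mEGFP_budding, each highest without Halo-NLS replicate 3. Hmga2 ran from -0.088 to 0.15 in SOX9-mEGFP_spheroid and from -0.22 to 0.064 in SOX9-Halo_budding, and Igf2bp2 from -0.41 to 0.074 in SOX9-Halo_budding and from -0.27 to 0.22 in SOX9-mEGFP_budding. Library sizes alone gave 0.16 for Igf2bp2 and 0.25 for Hmga2 in SOX9-Halo_budding, and Igf2bp2 in SOX9-mEGFP_budding was -0.0056 with RLE scaling and -0.00074 with only the libraries compared. Between the budding lines Igf2bp1 ran from -0.61 to 0.17 and Igf2bp2 from -0.35 to 0.092, and in the interaction Igf2bp2 ran from -0.35 to 0.15, Hmga1 from -0.048 to 0.23 and Hmga2 from -0.30 to 0.00082.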
